A study of Mus musculus with 12 samples.

Results

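Hearts with a ligated left coronary artery were compared with sham hearts, so that changes common to ligated hearts could be described whether or not an adenosine analogue had been given. The comparison took 10 mice, 7 infarcted and 3 sham vehicle, which carry 10 of the 12 libraries of the series. The 2 libraries left out are the first, deeper libraries of MI mice 2 and 3, so that each mouse entered once and at like depth. The 3 sham vehicle mice are called vehicle-treated in their titles and sham in their descriptions. Of the infarcted mice, 3 had the ligation alone (the MI mice, for myocardial infarction) and 4 also had NECA delivered locally into the infarcted muscle (the NECA mice). NECA, 5′-(N-ethylcarboxamido)adenosine, is an analogue of adenosine and an agonist at its receptors. All 10 mice are labelled wild type, and the tissue is myocardium. The sources used here give no strain, age, time from ligation to sampling, hour of sampling or region of the heart. The labels of the MI mice mention no vehicle or delivery, so ligation cannot be told apart from a lack of vehicle in those mice, nor NECA from its delivery.

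A blocked coronary artery kills the heart muscle downstream of it. Monocytes and macrophages then clear dead cells, fibroblasts lay down collagen that becomes a scar, and the surviving muscle works under higher load. Muscle cells that lose oxygen or are overstretched typically lower transcripts for contraction, calcium handling and energy supply and return to some transcripts of the fetal heart.

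Libraries held 0.96 to 1.33 M counts (M, 1e+06 counts), so a gene at 10 CPM (counts per 1e+06 counts) rested on 9.6 to 13.3 counts in a library, and a count of 0 allowed up to 3.13 CPM (3 counts in the smallest library). Such limits cover counting error only. Heart muscle was the main source of RNA in all 10 mice, with 13983 to 32025 CPM of Myh6, the adult mouse myosin heavy chain. Across genes, log2 CPM of mice of a group correlated at r = 0.876 to 0.95, and those of sham and infarcted mice at 0.84 to 0.935; genes are not independent replicates. Sham vehicle mouse 3 and MI mouse 3 stood apart. Sham vehicle mouse 3 had 734 CPM of the atrial light chain gene Myl7, against at most 0.893 CPM in any other mouse, and 101 CPM of the fat cell hormone gene Adipoq, against 0 CPM in the other sham mice and at most 23.2 CPM in the infarcted ones. In MI mouse 3 Myh7, which encodes the slow myosin of fetal and strained ventricle, reached 2652 CPM, against 93.3 to 400.4 CPM in the other 9. Both mice were kept. Where leaving out 1 mouse moved a value below by over 1.5 times, the value without that mouse, or the range over such fits, follows it.

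In the 7 infarcted mice 3 genes rose and 5 fell against sham, out of 9505 tested. The genes that fell encode a beta tubulin (Tubb4b), the cell's importer of transferrin-bound iron (Tfrc), the first enzyme of haem synthesis (Alas1), a magnesium transporter (Slc41a3) and an enzyme that breaks down retinoic acid (Cyp26b1). Those that rose encode a clock repressor (Per2), a chemokine of lymphatic vessels (Ccl21a) and a non-classical MHC class I protein (H2-Q7). The threshold was a Benjamini-Hochberg adjusted p under 0.05 in edgeR's quasi-likelihood test, and 0.0842% of tested genes passed it, 0.0316% higher and 0.0526% lower. Changes ranged from 1.92-fold to 4.07-fold. No sham level of these 8 genes fell within the infarcted range, a separation that 346 of the 9505 genes (3.64%) showed. At an unadjusted p under 0.05, 447 genes were higher (4.7%) and 414 lower (4.36%), 9.06% in all. The set was small and moved with single mice: the count was 0 higher and 1 lower without sham vehicle mouse 2 or without NECA mouse 2, 1 and 3 without NECA mouse 4, 2 and 2 without MI mouse 1, 4 and 2 without sham vehicle mouse 1, 2 and 3 without NECA mouse 1 or 3, 6 and 6 without MI mouse 3, and 9 and 10 without sham vehicle mouse 3. With libraries scaled by their totals alone it was 5 higher and 5 lower. The genes themselves changed too. Without MI mouse 2 the count was again 3 and 5, but 5 of the 8 genes still passed. Of the 8, 3 still passed without sham vehicle mouse 1, 6 without sham vehicle mouse 3 and all 8 without MI mouse 3.

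**Figure D1:**
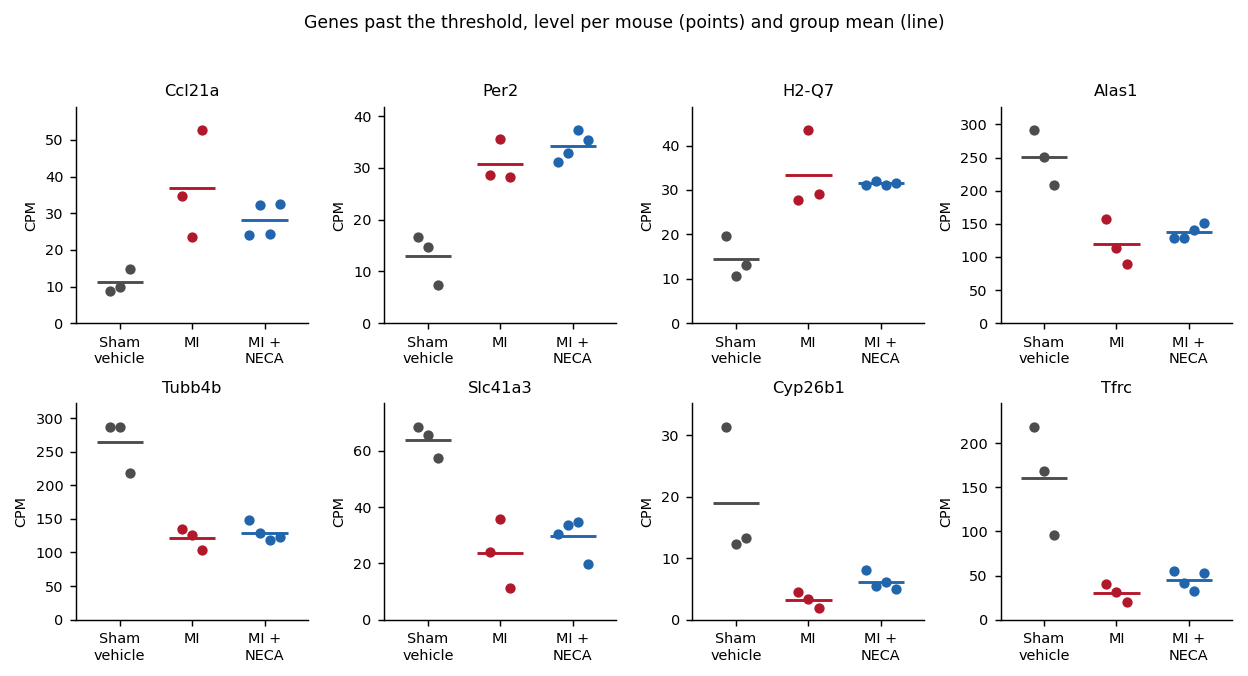
Level of each of the 8 genes past the threshold, in CPM on a linear axis from 0, for 3 sham vehicle, 3 MI and 4 NECA-treated MI mice; points are mice and lines are group means. In every panel the 7 infarcted mice lie on one side of the 3 sham mice, as for Tubb4b, at 103 to 148 CPM against 218 to 287 CPM.

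Tubulins form the microtubules that stiffen heart muscle cells and carry their cargo. Tubb4b (ENSMUSG00000036752) was at 287, 287 and 218 CPM in sham vehicle mice 1 to 3, and at 103 (lowest), 126 (median) and 148 CPM (highest) in the infarcted mice. No infarcted mouse came near the lowest sham mouse. Its log2 fold change was -1.06 ± 0.14 (SE, adjusted p = 0.000643), and it passed the threshold in each of the 10 fits that left out 1 mouse. The alpha tubulin genes of striated muscle showed the same separation without passing. Tuba8 was at 256, 228 and 115 CPM in sham mice and at 57.3, 95.6 and 107 CPM (lowest, median, highest) in infarcted mice, a log2 fold change of -1.14 ± 0.21 with an adjusted p of 0.0792. Tuba4a was at 1134, 1090 and 584 CPM in sham mice and at 148, 418 and 520.2 CPM in infarcted mice, a log2 fold change of -1.25 ± 0.32 with an adjusted p of 0.325. In both genes sham vehicle mouse 3 was the lowest sham mouse. Not all tubulins shared the pattern, as Tuba1b, the main alpha tubulin of dividing cells, had -0.33 and overlapped. Of 10 tubulin genes tested, 1 fell, 7 had negative values and 3 lay wholly below sham, against 1.83% of all genes, and the list's median was -0.25 against -0.01 over all genes. Without sham vehicle mouse 3 the median was -0.17 and Tuba1b had -0.21. Summed over the list, tubulin transcripts were at 2185, 2093 and 1548 CPM in sham mice and at 966 to 1204 CPM in infarcted mice, so the totals did not overlap. Tuba4a alone made up 1134, 1090 and 584 CPM of the sham totals, so the separation need not hold for the other tubulins.

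Cells take up iron through the transferrin receptor, which Tfrc encodes, and put much of it into haem, whose synthesis starts with ALAS1 in tissues other than red cell precursors. Tfrc (ENSMUSG00000022797) was at 219, 168 and 96.3 CPM in sham mice and at 19.7, 40.2 and 55.2 CPM in infarcted mice. Every infarcted mouse had less than the lowest sham mouse, with a log2 fold change of -2.03 ± 0.28 (adjusted p = 0.0346). Alas1 (ENSMUSG00000032786) was at 291, 251 and 208 CPM in sham mice and at 89.3, 128 and 157 CPM in infarcted mice, and fell by 0.94 ± 0.16 on the log2 scale (adjusted p = 0.0172). Its groups did not overlap either. Of 15 iron and haem genes tested these 2 fell, none rose, and the list's median was -0.01 (-0.02 to 0.02 when 1 mouse was left out). Hmox1, which breaks haem down, was at 2.94, 4.09 and 8.08 CPM in sham mice and at 9.85, 12.3 and 19.6 CPM in infarcted mice, a log2 fold change of 1.33 ± 0.36 that did not pass (adjusted p = 0.258). Tfrc lost its call in 6 of the 10 fits without 1 mouse (without sham vehicle mouse 1 or 2, MI mouse 1 or 2, or NECA mouse 2 or 3, adjusted p = 0.0519 to 0.197), and Alas1 in 3 (without sham vehicle mouse 1 or 2 or NECA mouse 2, 0.0661 to 0.128).

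Immature red cells are rich in TFRC, so the red cell transcripts are given beside these genes. All 6 tested erythroid genes had negative values, with a median of -0.91, or -0.47 without sham vehicle mouse 3, and none passed. The sum over all 9 members of the list, tested or not, was at 1299, 1842 and 3498 CPM in sham mice. In infarcted mice it was at 747 (lowest), 947 (median) and 2839 CPM (highest), the highest being MI mouse 2. Bpgm, a red cell enzyme, was at 30.4, 30.3 and 43.4 CPM in sham mice against 10.7, 16.8 and 29.0 CPM in infarcted mice, a log2 fold change of -0.91 ± 0.24 (adjusted p = 0.258). Alas2, the red cell form of the haem enzyme, overlapped between the groups at 19.6 to 44.1 CPM in sham mice and 7.14 to 39.0 CPM in infarcted mice. The order of the sham mice differed: Tfrc was lowest in sham vehicle mouse 3, where the erythroid sum was highest, and in MI mouse 2 Tfrc was at 31.2 CPM while the erythroid sum was the highest among infarcted mice. Whether red cell content had a part in the fall of Tfrc was not tested.

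Slc41a3 (ENSMUSG00000030089) encodes a magnesium transporter of the mitochondrial membrane. It was at 68.7, 65.5 and 57.3 CPM in sham mice and at 11.3, 30.4 and 35.7 CPM in infarcted mice, and fell by 1.23 ± 0.22 on the log2 scale (adjusted p = 0.0346). Every infarcted mouse was below the sham mice by more than the spread among them. The call was lost without sham vehicle mouse 1 or 2, MI mouse 1, or NECA mouse 1, 2 or 4 (adjusted p = 0.0661 to 0.205). Among 14 genes for ion and bicarbonate transporters it was the 1 that passed, 12 had negative values, and 5 lay wholly below sham, against 1.83% of all genes. Of these, Slc4a4, a sodium bicarbonate cotransporter, had a log2 fold change of -0.63 ± 0.20 (adjusted p = 0.372).

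Retinoic acid guides heart development and reappears in the injured heart, and CYP26B1 limits it. Cyp26b1 (ENSMUSG00000063415) was at 31.4, 12.3 and 13.2 CPM in sham mice and at 1.88, 4.93 and 8.01 CPM in infarcted mice. The groups did not overlap, with sham vehicle mouse 1 far above the others and infarcted levels of a few counts per library. Its log2 fold change was -1.87 ± 0.37 (adjusted p = 0.0497). The call was lost in 8 of the 10 fits without 1 mouse (adjusted p = 0.0565 to 0.479), that is, in all but those without sham vehicle mouse 3 or MI mouse 3. Of 11 retinoic acid genes tested no other passed, 6 had positive and 5 negative values, and the median was 0.04, with -0.06 to 0.20 when 1 mouse was left out.

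In nearly every cell CLOCK and BMAL1 switch on the period genes Per1, Per2 and Per3, whose proteins shut down their own activators, and the PAR bZIP factors DBP, TEF and HLF carry the rhythm to output genes. CLOCK and BMAL1 bind the E-box CACGTG and the PAR bZIP factors bind the D-box TTATGTAA. Windows around these motifs are shown for Per1, Per3, Ciart and Tef, whose values are given next, and for Slc41a3. They come from RefSeq promoters of build GRCm38.p6 that run from 250 bases before to 50 bases after a gene start. Not every window is shown: Ciart also held E-boxes 58 and 44 bases before its start, and Tef 138 bases before another start. Windows of Cry1 and Bhlhe41 are not shown. Capitals mark the motif, and each sequence reads 5′ to 3′ on the gene's strand.
Per1 E-box (chr11:69098772-69098799, + strand, 166 bases before the start): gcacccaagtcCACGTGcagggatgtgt
Per3 D-box (chr4:151044852-151044881, - strand, 205 bases before the start): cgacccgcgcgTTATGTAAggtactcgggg
Per3 D-box (chr4:151044805-151044834, - strand, 158 bases before the start): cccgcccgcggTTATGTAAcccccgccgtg
Ciart E-box (chr3:95882328-95882355, - strand, 116 bases before the start): gcatctagagtCACGTGttgccggtaag
Tef E-box (chr15:81802535-81802562, + strand, 127 bases before the start): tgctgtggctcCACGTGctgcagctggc
Slc41a3 E-box (chr6:90619022-90619049, + strand, 213 bases before the start): gcagcccatggCACGTGtgcagaggaca
Both strands were searched. Of 32851 promoters of this length, 7.15% held CACGTG and 0.938% held TTATGTAA. Among the 22 genes of the clock lists 18 had a promoter in this set, 25 promoters in all. Of these genes 5 held the E-box and 1 the D-box. Of the 8 genes past the threshold 7 had a promoter in the set, 9 promoters in all. Among those genes Slc41a3 alone held an E-box and none a D-box. These counts are per gene over all its promoters, so they cannot be set directly against the shares, which are per promoter. Per2 had no promoter in the set, so it was not searched for either motif. These matches describe the letters of the windows and not binding.

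Per2 (ENSMUSG00000055866) was at 16.7, 14.7 and 7.35 CPM in sham mice and at 28.2, 32.9 and 37.3 CPM in infarcted mice. All 7 infarcted mice lay within a narrow band above the sham mice. It rose by 1.36 ± 0.24 on the log2 scale (adjusted p = 0.0251). The call was lost without sham vehicle mouse 2 or 3 or NECA mouse 2 (adjusted p = 0.0661 to 0.117). The other period genes had values of like size that did not pass. Per3 was at 49.0, 22.1 and 22.05 CPM in sham mice and at 47.3, 80.8 and 93.6 CPM in infarcted mice, with MI mouse 1 just under the highest sham mouse, and had a log2 fold change of 1.31 ± 0.27 (adjusted p = 0.172). Per1 was at 46.1, 36.9 and 15.4 CPM against 50.9, 68.6 and 77.8 CPM, without overlap, and had 1.01 ± 0.25 (adjusted p = 0.24). Sham vehicle mouse 3 was lowest for Per1 and Per2, and without it their log2 fold changes were 0.64 and 1.06.

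Of 10 core clock genes tested 1 rose, 7 had positive values and 5 were higher at an unadjusted p under 0.05, against 4.7% of all genes, and the median was 0.31, or 0.53 without sham vehicle mouse 1. Summed over all 13 members, tested or not, the core clock list overlapped, at 501, 393 and 386 CPM in sham mice and 472 to 613 CPM in infarcted mice. Ciart, a repressor of CLOCK and BMAL1, had 1.27 ± 0.50 (adjusted p = 0.447), with 0.70 without sham vehicle mouse 3 and 2.55 without sham vehicle mouse 1. Nr1d2, a nuclear receptor that represses Bmal1, had 0.40 ± 0.16 (adjusted p = 0.468), or 0.62 without sham vehicle mouse 1. Its relative Nr1d1 had -0.20 ± 0.13 (adjusted p = 0.66), and Clock itself -0.43 ± 0.21 (adjusted p = 0.559), or -0.27 without sham vehicle mouse 3. The Bmal1 gene, listed as Arntl, was too low to be tested, at 2.94 to 8.19 CPM in sham mice and 0.985 to 5.57 CPM in infarcted mice. All 7 tested clock output genes had positive values, with a median of 0.56, or 0.36 without sham vehicle mouse 3, and none passed. The sum over all 8 members of the list, tested or not, was at 556, 414 and 389 CPM in sham mice. In infarcted mice it was at 585 (lowest), 604 (median) and 749.7 CPM (highest), without overlap. Hlf was at 16.7, 15.6 and 29.4 CPM in sham and 33.8, 37.6 and 47.3 CPM in infarcted mice (log2 fold change 0.89 ± 0.22, adjusted p = 0.211), and Tef and Dbp had 0.56 ± 0.15 and 0.61 ± 0.19 (adjusted p = 0.258 and 0.354). Dbp had 0.34 without sham vehicle mouse 3 and 0.96 without sham vehicle mouse 1. Per1 and Tsc22d3 also answer to glucocorticoids. Tsc22d3 was at 45.1 to 49.1 CPM in sham and 56.0 to 96.8 CPM in infarcted mice, a log2 fold change of 0.64 ± 0.17 (adjusted p = 0.258). Of 14 glucocorticoid response genes tested 10 had positive and 4 negative values, with a median of 0.28, and none passed. Summed over all 15 members, tested or not, that list overlapped, at 557 to 1088 CPM in sham and 601 to 829 CPM in infarcted mice. Clock transcripts change with the hour of the day, and since no hour is given, the hour of sampling and the ligation cannot be told apart here.

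**Figure D2:**
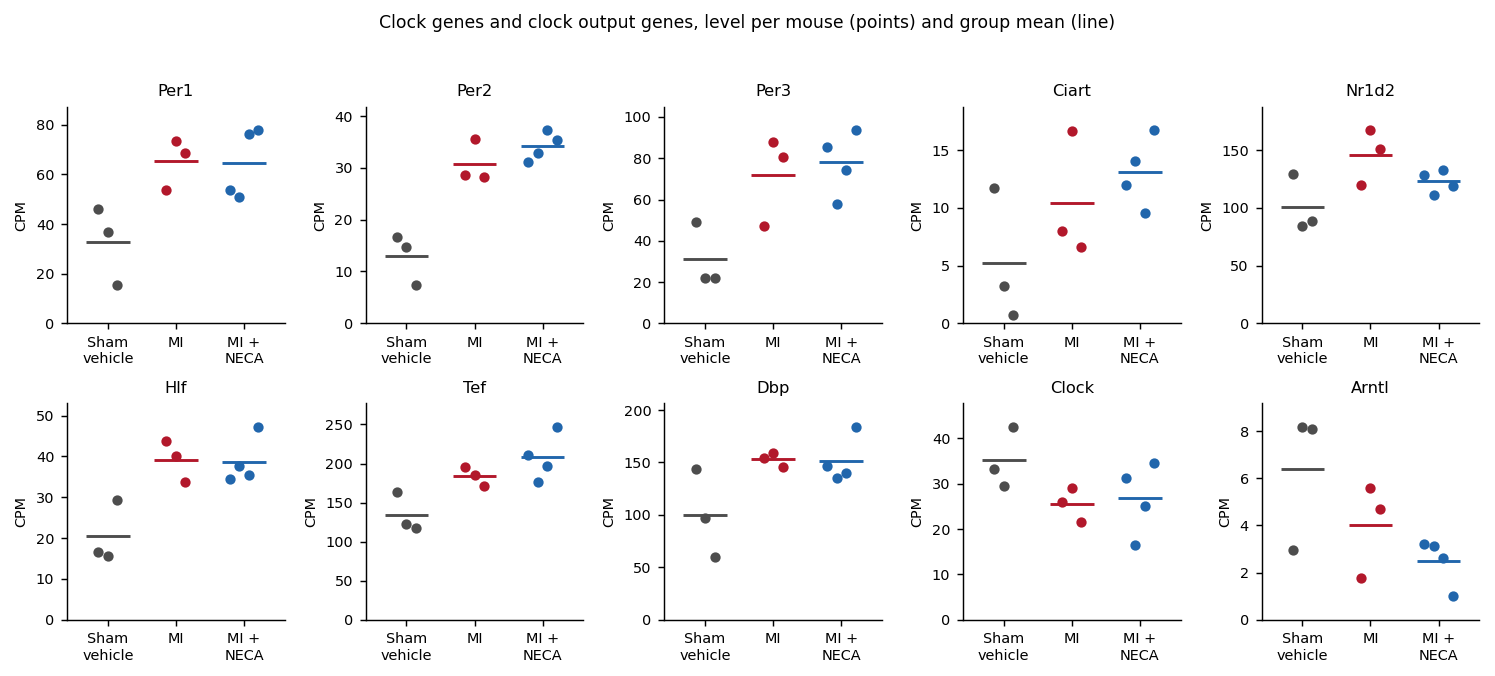
Level of 10 clock and clock output genes in CPM on linear axes from 0, for 3 sham vehicle, 3 MI and 4 NECA-treated MI mice; points are mice and lines are group means. Per1, Per2, Hlf and Tef do not overlap between sham and infarcted mice, while Clock and Arntl have their group means in the other direction, and of the 10 genes Per2 alone passed the threshold (Arntl was too low to be tested).

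Ccl21a encodes a chemokine that lymphatic vessels use to draw in dendritic cells and T cells. Ccl21a (ENSMUSG00000094686) was at 8.83, 9.83 and 14.7 CPM in sham mice and at 23.4, 32.1 and 52.6 CPM in infarcted mice. No mouse overlapped, and MI mouse 3 was the highest. It rose by 1.49 ± 0.28 on the log2 scale (adjusted p = 0.0369). The mouse genome holds near-identical copies of this gene, and RSEM divides reads among copies, so the level is uncertain. The call was lost without sham vehicle mouse 1 or 2, MI mouse 1, or NECA mouse 2 or 4 (adjusted p = 0.0776 to 0.28). Of 7 tested markers of lymphatic vessels, Ccl21a included, 4 had positive and 3 negative values, the median was 0.11 (-0.08 to 0.21 when 1 mouse was left out), and the summed list was at 143 to 205 CPM in sham and 144 to 205 CPM in infarcted mice. Transcripts of T and NK cells, which follow this chemokine, were all too low to be tested, at a sum of 1.64 to 44.8 CPM in sham and 2.35 to 16.01 CPM in infarcted mice. All 13 tested genes of the chemokine and adhesion list had positive values. The level summed over all 32 members of the list, tested or not, did not overlap. It was at 362 to 417 CPM in sham and 436 to 670.0 CPM in infarcted mice.

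MHC class I proteins show fragments of a cell's own proteins to T and NK cells, and the Q-region genes encode non-classical members. H2-Q7 (ENSMUSG00000060550) was at 19.6, 10.6 and 13.2 CPM in sham mice and at 27.7, 31.2 and 43.5 CPM in infarcted mice. The groups did not overlap, and 6 of the 7 infarcted mice lay between 27.7 and 32.1 CPM. It rose by 1.17 ± 0.23 on the log2 scale (adjusted p = 0.0497). Reads are divided among close relatives of this gene, and H2-Q6, its nearest neighbour in name, had 0.80 ± 0.23 (adjusted p = 0.298) without overlap. The call held in 2 of the 10 fits without 1 mouse, those without sham vehicle mouse 1 or MI mouse 3, and was lost in the other 8 (adjusted p = 0.0704 to 0.336). The classical gene H2-D1 and the shared light chain B2m had 0.39 ± 0.18 and 0.48 ± 0.29 (adjusted p = 0.531 and 0.651) and overlapped, since sham vehicle mouse 3 was at 274 and 226 CPM against 108 to 168 CPM of either gene in the other sham mice. Without sham vehicle mouse 3 they had 0.74 and 0.93, and without sham vehicle mouse 2 they had 0.19 and 0.31. B2m had 0.32 without sham vehicle mouse 1. Of 16 genes of the class I pathway 13 had positive values, 5 at an unadjusted p under 0.05 (4.7% of all genes), and the median was 0.37, or 0.21 without sham vehicle mouse 2. Macrophage transcripts, given below, were also more abundant in most infarcted mice, and their part in these values was not tested.

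Both kinds of infarcted heart shared the 8 changes. The 2 comparisons below use the same 3 sham mice, so they are not independent, and the pooled test that chose the genes used the same mice. Against sham, the log2 fold changes in MI mice and in NECA mice were 1.27 and 1.43 for Per2, 1.71 and 1.31 for Ccl21a, and 1.21 and 1.14 for H2-Q7. They were -1.12 and -1.02 for Tubb4b, -1.05 and -0.86 for Alas1, -2.39 and -1.81 for Tfrc, -1.45 and -1.09 for Slc41a3, and -2.48 and -1.57 for Cyp26b1. The sign was the same in all 8, as it was for 71.2% of all genes tested, and in each gene both the 3 MI mice and the 4 NECA mice lay beyond the sham mice. The difference between the 2 infarcted groups was tested for itself. NECA minus MI was 0.90 ± 0.55 for Cyp26b1, 0.58 ± 0.35 for Tfrc, 0.36 ± 0.29 for Slc41a3 and -0.40 ± 0.25 for Ccl21a, and within 0.2 of 0 for the other 4. None passed, and over all 9505 genes the test called 0, with 577 genes (6.07%) at an unadjusted p under 0.05. With 3 and 4 mice these errors leave room for differences between the groups.

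Markers of macrophages and monocytes leaned to infarcted hearts. Of 22 tested markers 21 had positive values and 14 were higher at an unadjusted p under 0.05, against 4.7% of all genes, and the median was 1.05, but none passed the adjusted threshold. In bulk tissue more cells of a type and more RNA per cell cannot be told apart. Itgam, an integrin of monocytes, macrophages and neutrophils, was at 1.96, 1.64 and 4.41 CPM in sham mice and at 6.69, 17.9 and 43.2 CPM in infarcted mice, without overlap. Its log2 fold change was 3.02 ± 0.64 (adjusted p = 0.211). Cd68, a macrophage lysosomal protein, was at 3.67 to 4.91 CPM in sham and 7.14 to 20.7 CPM in infarcted mice, a log2 fold change of 1.53 ± 0.38 (adjusted p = 0.213). The more abundant Lyz2, the lysozyme of macrophages and neutrophils, was at 119, 87.6 and 189 CPM in sham mice and at 177, 271 and 518 CPM in infarcted mice and overlapped through sham vehicle mouse 3 and MI mouse 2. Summed over the list, sham mice had 411, 332 and 719 CPM and infarcted mice 578 (lowest), 857 (median) and 1508 CPM (highest), again with the overlap in those 2 mice. Of the neutrophil markers G0s2 alone was abundant enough to be tested, and the others, S100a8 and S100a9 among them, were too low.

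Osteopontin, a matrix and cytokine protein of macrophages and healing scars, was at a count of 0 in all sham mice. Its gene Spp1 was at 0.985 (lowest), 6.41 (median) and 36.6 CPM (highest) in infarcted mice (adjusted p = 0.531), with the highest in MI mouse 3. A count of 0 over the sham libraries together allows up to 0.833 CPM. Arg1, an arginase of repair macrophages, was at 0 to 0.819 CPM in sham and at 0 to 18.2 CPM in infarcted mice. All 14 tested genes of the osteopontin and lipid-handling macrophage list had positive values, 4 at an unadjusted p under 0.05 (4.7% of all genes), with a median of 0.39. That median was 0.17 without MI mouse 3 and 0.88 without sham vehicle mouse 3. Complement genes, many of them made by macrophages and fibroblasts, had 14 positive values of 17 and a median of 0.39, which was 1.19 without sham vehicle mouse 3, 0.13 without sham vehicle mouse 1 and 0.17 without sham vehicle mouse 2.

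Scar matrix genes had mostly positive values that differed widely between infarcted mice. Of 17 collagen genes tested 14 had positive values and 6 were higher at an unadjusted p under 0.05 (4.7% of all genes), and of 16 matricellular genes, whose proteins steer cells within the matrix, all 16 were positive and 7 lay wholly above sham, against 1.81% of all genes. The medians were 1.23 and 1.29. Col3a1, a fibrillar collagen of young scars, was at 132, 149.9 and 485 CPM in sham mice and at 421, 944 and 3975 CPM in infarcted mice, a log2 fold change of 2.36 ± 0.90 (adjusted p = 0.506). Postn, periostin of activated fibroblasts, was at 12.7, 11.46 and 48.5 CPM in sham and at 56.2, 185 and 1063 CPM in infarcted mice, a log2 fold change of 3.40 ± 1.29 (adjusted p = 0.506). In each gene MI mouse 3 was the highest infarcted mouse by 2 times or more and sham vehicle mouse 3 the highest sham mouse. Without MI mouse 3 the median was 0.82 for collagens and 0.63 for matricellular genes. Mmp2, a gelatinase, was at 25.5, 15.6 and 38.9 CPM in sham and at 56.2, 82.1 and 298 CPM in infarcted mice (2.04 ± 0.68, adjusted p = 0.445), and Eln, elastin, had 2.37 ± 0.99 (adjusted p = 0.531). Of 19 fibroblast genes 17 had positive values, with a median of 0.54, or 0.83 without sham vehicle mouse 3. Ddr2, a collagen receptor of fibroblasts, had 0.61 ± 0.23 (adjusted p = 0.431), or 1.06 without that mouse.

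**Figure D3:**
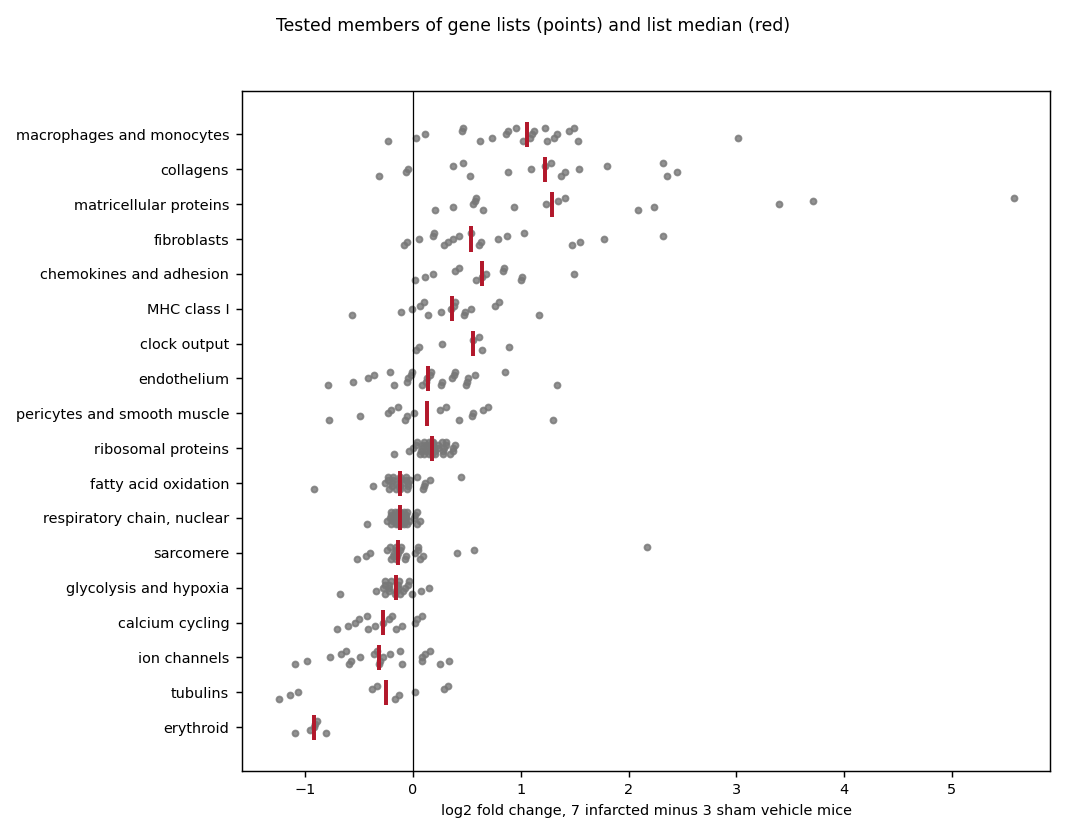
Log2 fold change, 7 infarcted minus 3 sham vehicle mice, of the tested members of 18 gene lists (grey points) with the median of each list (red line); members without a count in any sham mouse are not drawn as points. Matricellular proteins, collagens and macrophages have medians above 1, while tubulins, ion channels, calcium cycling and erythroid genes have medians below 0; the 8 genes past the threshold are not marked.

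Genes of the muscle cell itself had more negative than positive values in most lists. Calcium cycling genes, which release and recapture calcium at each beat, had negative values in 12 of 15 and a median of -0.28, and ion channel genes in 16 of 22 with a median of -0.31. Without MI mouse 3 the median of calcium cycling genes was -0.14. Casq2, the calcium store of the sarcoplasmic reticulum, was at 1259, 970.4 and 655 CPM in sham mice and at 448, 641 and 722 CPM in infarcted mice, a log2 fold change of -0.60 ± 0.18 (adjusted p = 0.325). Sham vehicle mouse 3 lay within the infarcted range, and without sham vehicle mouse 1 the value was -0.35. Kcnk3, a two-pore potassium channel, was at 298, 248 and 238 CPM in sham and at 104, 182 and 212 CPM in infarcted mice, and Hcn4, the pacemaker channel, at 13.9 to 26.5 CPM and 4.46 to 13.4 CPM. Neither overlapped, and their log2 fold changes were -0.57 ± 0.17 and -1.09 ± 0.30 (adjusted p = 0.325 and 0.258). Of 25 sarcomere genes 17 had negative values, with a median of -0.14 that ran from -0.25 without sham vehicle mouse 3 to -0.02 without sham vehicle mouse 1, and reached 0.03 under another alternative. Myom2, an M-band protein, was an exception, at 948, 848 and 767 CPM in sham and 1082, 1242 and 1526 CPM in infarcted mice (0.56 ± 0.15, adjusted p = 0.258), and Actc1, cardiac actin, had -0.52 ± 0.17 (adjusted p = 0.38), or -0.29 without sham vehicle mouse 1. Of 22 cardiac transcription factor genes 14 had negative values, with a median of -0.14 that was -0.01 without MI mouse 3, and Tbx20 had -0.50 ± 0.15 (adjusted p = 0.325). Genes of the fetal heart and of stretch went the other way in 9 of 13, with a median of 0.22, which was 0.10 without MI mouse 3, 0.48 without sham vehicle mouse 3 and 0.35 without NECA mouse 4, and none passed. Of these Myh7 was at 144, 185 and 93.3 CPM in sham and at 131, 323 and 2652 CPM in infarcted mice, a log2 fold change of 2.17 ± 1.06 (adjusted p = 0.585) that was 1.09 without MI mouse 3. Nppa, one of the atrial markers, had -1.004 and did not pass, with -2.65 without MI mouse 3 and 2.03 without sham vehicle mouse 3.

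Energy supply showed many small negative values. They were found in 21 of 23 glycolysis and hypoxia genes, 24 of 30 fatty acid oxidation genes and 32 of 37 nuclear genes of the respiratory chain (48.5% of all genes tested had positive ones), with medians of -0.16, -0.12 and -0.12. None of these genes passed. Without sham vehicle mouse 3 the medians were -0.26, -0.29 and -0.27, without MI mouse 3 -0.08, -0.03 and -0.08, and without sham vehicle mouse 1 -0.10, -0.02 and -0.02. Without sham vehicle mouse 2 the median of fatty acid oxidation was 0.0032 and that of the respiratory chain -0.06. Egln3, a prolyl hydroxylase that hypoxia induces, was at 83.4, 98.3 and 47.0 CPM in sham mice and at 30.1, 45.5 and 60.0 CPM in infarcted mice and had -0.68 ± 0.20 (adjusted p = 0.345), or -0.44 without sham vehicle mouse 2. Cycs, cytochrome c, had -0.43 ± 0.16 (adjusted p = 0.429), or -0.27 without sham vehicle mouse 1. Ribosomal protein genes leaned the other way, with 36 of 39 positive and a median of 0.18, or 0.07 without MI mouse 3. Their sums came close to overlapping, at 7707 to 7820 CPM in sham and 7863 to 11279 CPM in infarcted mice, the highest being MI mouse 3 and the next 8397 CPM. Many have processed pseudogenes that share reads. Medians of this size are near the shift that the scaling itself can make, since without scaling beyond library totals the median of all genes moved by 0.07.

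Vessel genes were mixed. Of 26 endothelial genes tested 16 had positive values, 7 were higher and 2 lower at an unadjusted p under 0.05, against 4.7% and 4.36% of all genes, and the median was 0.14, or 0.23 without sham vehicle mouse 2. Aplnr, the apelin receptor, was at 30.1 to 38.2 CPM in sham and 40.4 to 94.9 CPM in infarcted mice, and Cav1, caveolin, at 186 to 231 CPM and 253 to 339 CPM. Neither overlapped, and their log2 fold changes were 0.86 ± 0.21 and 0.51 ± 0.14 (adjusted p = 0.211 and 0.275). Rgs5, a pericyte marker, was at 365, 338 and 249 CPM in sham and at 396, 496 and 596 CPM in infarcted mice (0.65 ± 0.16, adjusted p = 0.211), while the median of 16 pericyte and smooth muscle genes was 0.13, or 0.38 without sham vehicle mouse 3 and 0.21 without sham vehicle mouse 1. Cd63 and Tspan13, tetraspanins of endosomes and the cell surface, did not overlap either, at 30.3 to 41.2 CPM against 51.2 to 128 CPM and at 29.4 to 40.9 CPM against 43.9 to 68.1 CPM, with log2 fold changes of 1.10 ± 0.25 and 0.78 ± 0.18 (adjusted p = 0.211 and 0.184). Of 18 tetraspanin genes tested 11 had positive and 7 negative values, and none passed. Their median was 0.08, with -0.02 to 0.19 when 1 mouse was left out. Of the 18, 4 lay wholly above sham and 1 wholly below, against 1.81% and 1.83% of all genes. Klf6, an early response factor, was at 26.5 to 36.7 CPM in sham and 37.4 to 80.8 CPM in infarcted mice (0.85 ± 0.22, adjusted p = 0.213). Cish, an inhibitor of cytokine signalling, had -0.74 ± 0.18 (adjusted p = 0.211).

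Adenosine receptor genes did not pass. Adora1, the receptor that slows the heart, was at 11.8, 13.1 and 25.0 CPM in sham mice and at 8.81, 8.93 and 14.9 CPM in infarcted mice, a log2 fold change of -0.74 ± 0.29 (adjusted p = 0.447). The groups overlapped through NECA mouse 2, and sham vehicle mouse 3 was the highest; without it the value was -0.30. Adora2a, the receptor that widens coronary vessels, had 0.03 ± 0.42 (adjusted p = 0.99), with -0.32 to 0.53 when 1 mouse was left out, and Adora2b and Adora3 were too low to be tested, at no more than 3.67 and 1.64 CPM in any mouse. Entpd1 and Nt5e, which make adenosine outside cells, had 0.77 ± 0.28 and 0.65 ± 0.31 (adjusted p = 0.431 and 0.558). Of 8 tested genes of adenosine receptors and metabolism 4 had positive and 4 negative values. Their median was 0.014, with -0.0047 to 0.075 when 1 mouse was left out. The sum over all 11 members, tested or not, overlapped, at 217 to 240 CPM in sham and 186 to 252 CPM in infarcted mice.

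**Figure D4:**
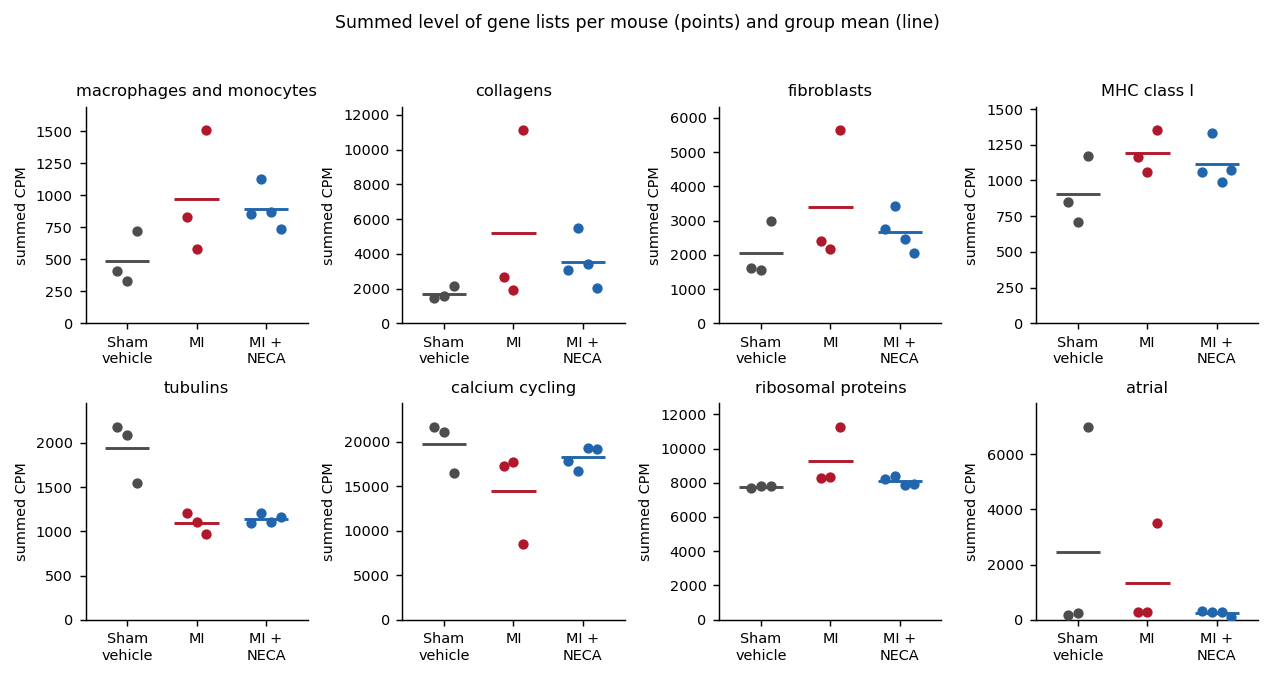
Summed CPM of 8 gene lists on linear axes from 0, for 3 sham vehicle, 3 MI and 4 NECA-treated MI mice; points are mice and lines are group means. Tubulins and ribosomal proteins do not overlap between sham and infarcted mice, MI mouse 3 is highest for collagens, fibroblasts and macrophages, and sham vehicle mouse 3 is highest among sham mice for those lists and for the atrial list.

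The number of genes that passed was higher without sham vehicle mouse 3 and MI mouse 3 than with all 10 mice. Without both, 6 infarcted mice against 2 sham mice gave 134 genes higher (1.4%) and 137 lower (1.43%), 2.83% of the 9560 tested, and all 8 genes above passed with the same sign. These 2 mice were left out because earlier results had shown them to stand apart, so the counts are a description of the other 8. No other pair of mice was left out, so whether the counts are particular to this pair was not tested. In that fit 10 of 22 macrophage markers rose, among them Itgam (3.40 ± 0.71), Adgre1 (2.52 ± 0.54), Mpeg1 (1.82 ± 0.40) and C1qb (0.996 ± 0.219), and none fell. Of 19 fibroblast genes 6 rose, with Vim at 1.32 ± 0.14 and Ddr2 at 0.998 ± 0.25, and of 17 collagen genes 2 rose, Col18a1 and Col6a2. Hlf and Tef rose by 1.29 ± 0.25 and 0.49 ± 0.13, and B2m and H2-D1 by 0.78 ± 0.14 and 0.72 ± 0.13. Of 26 endothelial genes 1 rose, Cav1 by 0.49 ± 0.12, and 2 fell, Dll4 by 0.88 ± 0.25 and Kdr by 0.43 ± 0.12. Tuba8 and Tuba4a fell by 1.34 ± 0.12 and 1.36 ± 0.10, and Casq2, Slc8a1, Srl, Jph2 and Asph made 5 of 15 calcium cycling genes that fell. Of 23 glycolysis and hypoxia genes 7 fell, led by Egln3 (-0.86 ± 0.15), with Gapdh at -0.41 ± 0.08. Of 25 sarcomere genes 4 fell, among them Actc1 (-0.71 ± 0.08), and Myom2 rose by 0.52 ± 0.10. All values in this paragraph are log2 fold changes with SE, past an edgeR adjusted p of 0.05. With 2 sham mice the spread among controls rests on 1 difference.

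**Figure D5:**
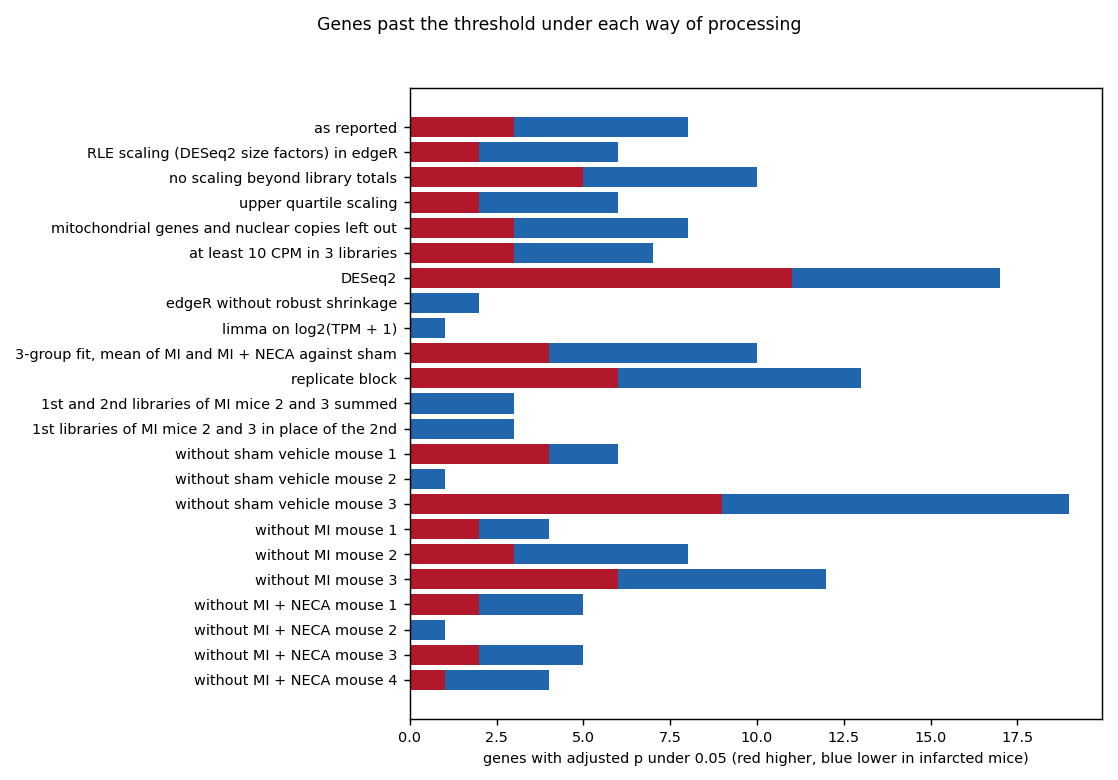
Number of genes with an adjusted p under 0.05 (bars, red for higher and blue for lower in infarcted mice) for the comparison as reported and 22 other ways of processing; the fit without a count filter (59 higher and 56 lower) and the fit without sham vehicle mouse 3 and MI mouse 3 (134 and 137) are not drawn because they would flatten the rest. Counts run from 1 gene to 19 genes, the highest without sham vehicle mouse 3.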

How the data were processed

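RNA of mouse myocardium was sequenced from transcript 3′ ends with a modified CEL-Seq2 protocol and amplified without pooling samples, per the labels' protocols. FastQC 0.11.9, STAR, RSEM and build GRCm39 are named in the submitters' processing notes. For the annotation release, the strand setting and any collapse by molecular identifier, nothing is stated in the labels. The authors deposited expected counts per gene, as whole numbers, and log2(TPM + 1) values. The 56647 of 57054 gene rows with a value in every column were used, and 52029 took a symbol from GENCODE M21 by identifier.

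The main test was edgeR 4.0.16 (R 4.3.3) on these counts, with filterByExpr, TMM scaling and the robust quasi-likelihood test on 2 groups, two-sided. NECA minus MI came from a 3-group fit of the same genes. CPM are scaled with TMM, and ± gives a standard error. The labels number the mice, and nothing says how they were housed, operated on or sequenced in batches. Alternatives were other scalings, filters and libraries, DESeq2 1.42.0, limma 3.58.1 on the log2 values, a replicate block and leaving out mice. Scripts were tested on simulated data.

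The mice compared, the 58 gene lists and the rule for named genes were chosen with earlier results of these data known. The rule took called genes whose groups did not overlap and whose mean reached 10 CPM, if they had an established symbol, filled up to 5 higher genes by smallest p (adding Per3 and Tspan13), members of each list past the threshold or its 1 or 2 of smallest p, and adenosine receptors and markers of other tissues. Ciart, Nr1d1, Nr1d2, Clock, Arntl, Tef, Dbp, Tuba8, Tuba4a, Tuba1b, H2-Q6, H2-D1, B2m, Lyz2, Spp1, Myh6, Myh7, Nt5e and the genes of the fit with 8 mice were named after their values were seen.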

Additional observations from a re-analysis of the deposited data

Results flagged for a closer look

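In 48 groups of 4 to 7 mice the highest or lowest mouse was compared with the rest (Dixon's criterion), and 8 stood apart. The criterion flags about 1 in 20 by chance in independent groups. These groups share mice, so the 8 cannot be set against that rate. MI mouse 3 was the highest infarcted mouse for Ccl21a, at 52.6 CPM against 34.8 CPM in the next. It was also the highest for the summed collagens (11114 against 5507 CPM), fibroblast genes (5639 against 3411 CPM) and ribosomal protein genes (11279 against 8397 CPM), and the lowest for the summed ion channel genes (1241 against 2029 CPM). MI mouse 2 was the highest for H2-Q7, at 43.5 against 32.1 CPM, and for the summed erythroid genes, at 2839 against 1115 CPM. NECA mouse 2 was the lowest of the 4 NECA mice for the summed core clock genes, at 472 against 550 CPM.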

How the results depend on the processing

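All 8 genes kept their sign in 24 alternatives, and Tubb4b passed in all 24, Tfrc, Alas1 and Per2 in 17, Slc41a3 in 16, Ccl21a in 14, H2-Q7 in 9 and Cyp26b1 in 7. The counts, higher and lower, were 5 and 5 without scaling beyond library totals, 59 and 56 of 20308 genes with no count filter, 11 and 6 with DESeq2, 0 and 2 without robust shrinkage (907 genes at an unadjusted p under 0.05), 0 and 1 with limma on log2(TPM + 1) (720 such genes), 0 and 3 with the libraries of MI mice 2 and 3 summed (756) or the first ones in their place (738), and 134 and 137 without sham vehicle mouse 3 and MI mouse 3. Leaving out 1 mouse gave 0 to 9 higher and 1 to 10 lower. The cause of these moves was not tested. With a replicate block 6 genes were higher and 7 lower, and H2-Q7 did not pass (adjusted p = 0.104). The main test took the numbers as names of mice only. Deviations of same-numbered mice correlated at -0.228 to 0.179 and exceeded 0.1 in 2 of 9 pairs. Whether same-numbered mice shared a day of surgery or a batch cannot be told from these values. Of 78 named genes 4 reversed, none past the threshold: Adipoq (-1.71) had 0.23 with limma, -2.27 without sham vehicle mouse 2, 6.59 without sham vehicle mouse 3 and 6.82 without it and MI mouse 3, Nppa (-1.004) had 2.03 and 0.38 in those last 2 fits and -2.65 without MI mouse 3, Adora2a (0.03) had -0.32 and -0.39 there and 0.53 without sham vehicle mouse 2, and Myh6 (-0.22) had 0.053 with limma. At 10 CPM a library held about 10 counts, which limits what could be tested for chemokines, T cells and neutrophils.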

Other observations

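Genes of the mitochondrial ribosome, which translates the mitochondrially encoded subunits of the respiratory chain, leaned lower in infarcted hearts, unlike those of the cytosolic ribosome. The list was drawn up after its values were seen, so it carries no test. Of 78 tested 66 had negative values, 19 were lower at an unadjusted p under 0.05 (4.36% of all genes) and 8 lay wholly below sham (1.83% of all genes). The median was -0.24, or -0.14 without sham vehicle mouse 1. The sum was at 3980, 3693 and 2997 CPM in sham mice and at 2759 (lowest), 3022 (median) and 3381 CPM (highest) in infarcted mice, overlapping through sham vehicle mouse 3. None passed with all 10 mice, and 8 fell without sham vehicle mouse 3 and MI mouse 3.

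Genes of cholesterol synthesis and uptake, another list drawn up after its values were seen, had 11 negative values of 15 and a median of -0.26. The sum over all 26 members, tested or not, did not overlap, at 361, 331 and 484 CPM in sham mice and at 284 to 320.5 CPM in infarcted mice. Without sham vehicle mouse 3 the median was 0.04, and without it and MI mouse 3 0.06, and Hsd17b7, an enzyme of the pathway, fell by 1.14 ± 0.26 on the log2 scale.

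B cell transcripts differed between mice of both groups, at a sum of 16.7, 5.73 and 236 CPM in sham mice and 10.4 (lowest), 289 (median) and 1266 CPM (highest) in infarcted mice. Transcripts of the mesothelium, which covers the heart, ranged from 11.8 to 377 CPM in sham and from 24.3 to 248 CPM in infarcted mice. In skeletal muscle genes NECA mouse 4 was the highest of the 10, with 102 CPM of Myh4, against at most 4.46 CPM in any other mouse.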
